A study of Homo sapiens with 9 samples.

Results

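The autophagy machinery and its receptors were followed as a list of 41 genes of the 58735 in the count tables, matched by gene symbol. Each member was found once, and all 41 passed the filter on low counts, as did 16188 genes in all. RNA came from MDA-MB-231 cells, an established mesenchymal triple-negative breast cancer line, in 3 conditions of 3 libraries each. The vehicle group received DMSO. Erastin-R cells had survived increased concentrations of erastin, which blocks the cystine importer system xc-, and RSL3-R cells had survived RSL3, which inhibits glutathione peroxidase GPX4. Both compounds induce ferroptosis, a death by iron-dependent lipid peroxidation. The labels give no concentration or exposure time for these libraries. The study's methods describe a stepwise increase of either drug for the resistant lines it made, and do not state that these libraries came from those lines. The erastin-R and RSL3-R groups are cells that survived a drug, so selection of cells and response of cells cannot be told apart. The labels do not say that the replicates were separate cultures, so the p-values measure the spread between these libraries, which may be technical.

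Macroautophagy encloses cytosol, organelles or protein aggregates in a double membrane and delivers them to the lysosome. The ULK1 kinase complex starts the process, and the class III phosphatidylinositol 3-kinase complex marks the site with phosphatidylinositol 3-phosphate. WIPI proteins read this lipid, and ATG2 proteins move lipids into the growing membrane beside vesicles that carry ATG9A. Enzymes related to the ubiquitin system then attach ATG8 proteins (the LC3 and GABARAP families) to the membrane, where receptors such as SQSTM1 tether ubiquitin-marked cargo. TFEB and TFE3 are transcription factors of lysosomal and autophagy genes. In ferroptosis, autophagy is known for the breakdown of ferritin through the receptor NCOA4, and SQSTM1 is also known to bind KEAP1, the inhibitor of NRF2.

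Total counts ranged from 15405102 to 17273464 per library. Log2 levels of library pairs correlated at 0.986 to 0.992 within a condition (9 pairs) and at 0.959 to 0.972 between conditions (27 pairs), over genes that share each library's depth. Erastin-R replicate 1 stood apart from the other erastin-R libraries. Mitochondrial DNA gave 7.95% of its counts against 5.55% and 5.84% in the others, 7.97 to 8.93% in vehicle-treated and 9.52 to 10.2% in RSL3-R libraries. Its part in the values below was not tested, and values without this library are given where it changed a call past the test or the fold of the stricter rule described next. The line's markers VIM, CD44 and AXL were present in every library, with a summed level of 2553 to 2985 CPM (the count scaled to the TMM-normalized library size), while ESR1 had at most 12 counts and PGR at most 2. Of the other markers low in this line, CDH1 had 6 to 59 counts, EPCAM 15 to 48 and ERBB2 927 to 1598, with a summed level of the 5 markers of 65.4 to 99.99 CPM. CDH1 was at 14 to 27 counts in vehicle-treated, 6 to 20 in erastin-R and 53 to 59 in RSL3-R libraries. In RSL3-R cells against vehicle, edgeR's quasi-likelihood test gave log2 fold changes of 1.58 for CDH1 (adjusted p = 0.0013) and -0.59 for ERBB2 (adjusted p = 1.21e-05). Of 4 markers of other cell types (PTPRC, PECAM1, ALB, PTPRZ1), 3 exceeded 3 counts in a library in each condition and none was at 0 throughout. Their summed level was 9.93 to 11.2 CPM for vehicle-treated, 1.65 to 3.22 CPM for erastin-R and 13.3 to 15.8 CPM for RSL3-R libraries. PECAM1 gave most of it, with 20 to 222 counts per library, and its part in the members' values was not tested.

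In erastin-R cells more members were higher than lower against vehicle. Of the 41 members, 21 (51.2%) were higher past an adjusted p of 0.05 in edgeR's quasi-likelihood test, against 27.1% of all genes tested. Only 3 members (7.32%) were lower, against 26.8% of all genes: the lipid kinase subunit PIK3C3, the protease ATG4A and the E2-like enzyme ATG10. The remaining 17 did not pass the test, so 24 of 41 did, against 54.0% of all genes in either direction. All 3 erastin-R libraries lay above every vehicle library for 21 members (28.7% of all genes) and below them for 4 (29.1%). The median log2 fold change was 0.27 over the members and -0.004 over all genes tested. A stricter rule that also asked for a doubling or halving of the level (log2 fold change of 1 or more in size, the threshold the study used) was met upward by 5 members, ULK1, WIPI1, MAP1LC3A, GABARAPL1 and SQSTM1, and by 6.7% of all genes tested. No member met it downward (6.66% of all genes), and without a correction for multiple testing this count was also 0. GABARAPL1 lay just inside the fold with 1.003 ± 0.08 log2 units (SE), and ATG2A just outside it with 0.96 ± 0.10 log2 units. In such bulk samples, fewer cells that express a gene and less RNA per cell cannot be told apart. GABARAPL1 was below the fold without vehicle replicate 1 (0.98), vehicle replicate 3 (0.98) or erastin-R replicate 1 (0.96), and also with DESeq2, with quantile normalization and limma and without a filter, at log2 fold changes of 0.97 to 0.998. MAP1LC3A was below it without vehicle replicate 3 (0.98) or erastin-R replicate 2 (0.94), so that 3 members were left without vehicle replicate 3. ATG2A was past it without vehicle replicate 1 (1.01) or erastin-R replicate 1 (1.097).

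In RSL3-R cells, 22 members (53.7%) were higher against vehicle, with 23.8% of all genes tested called in that direction. ATG4A was the only member called lower (2.44%, against 24.9% of all genes), and 18 members did not pass the test. In all, 23 of 41 passed, against 48.7% of all genes in either direction. The RSL3-R libraries lay above all vehicle libraries for 24 members (30.4% of all genes) and below them for 4 (31.4%). The median log2 fold change was 0.30 over the members and 0.01 over all genes. The stricter rule was met upward by ULK1, WIPI1, MAP1LC3A and MAP1LC3B, which are 4 of 41 members, and by 6.02% of all genes. It was met downward by no member, also without correction for multiple testing, and by 4.08% of all genes. SQSTM1 missed the fold with 0.98 ± 0.07 log2 units (SE), and passed it without vehicle replicate 1 (1.002), RSL3-R replicate 1 (1.06) or RSL3-R replicate 3 (1.01). Both comparisons used the same vehicle libraries, so their values are given side by side below and are not independent of each other.

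The direct comparison of RSL3-R with erastin-R cells, whose spread was estimated in 1 model of all 9 libraries, found 8 members higher and 12 lower in RSL3-R cells. These were 19.5% and 29.3% of the members, near the 22.3% and 26.9% of all genes tested (49.2% in either direction), and the median log2 difference was -0.05 (-0.02 over all genes). No member met the stricter rule in either direction, adjusted or not, where 6.86% of all genes did upward and 3.48% downward. Without erastin-R replicate 1, GABARAP met it upward (1.52, adjusted p = 0.00292) and ATG4D downward (-1.12, adjusted p = 1.75e-10). The members on each side are described by role below. The summed level of the 41 members was 2763 ± 14.3 CPM for vehicle-treated, 4025 ± 29.9 CPM for erastin-R and 4008 ± 47.7 CPM for RSL3-R cells (SD, n = 3). SQSTM1 alone gave 10.3%, 19.8% and 14.1% of the members' counts in the same order. Without SQSTM1 the sums were 2478 ± 24.7, 3227 ± 50.8 and 3444 ± 53.0 CPM, with RSL3-R above erastin-R cells.

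**Figure D1:**
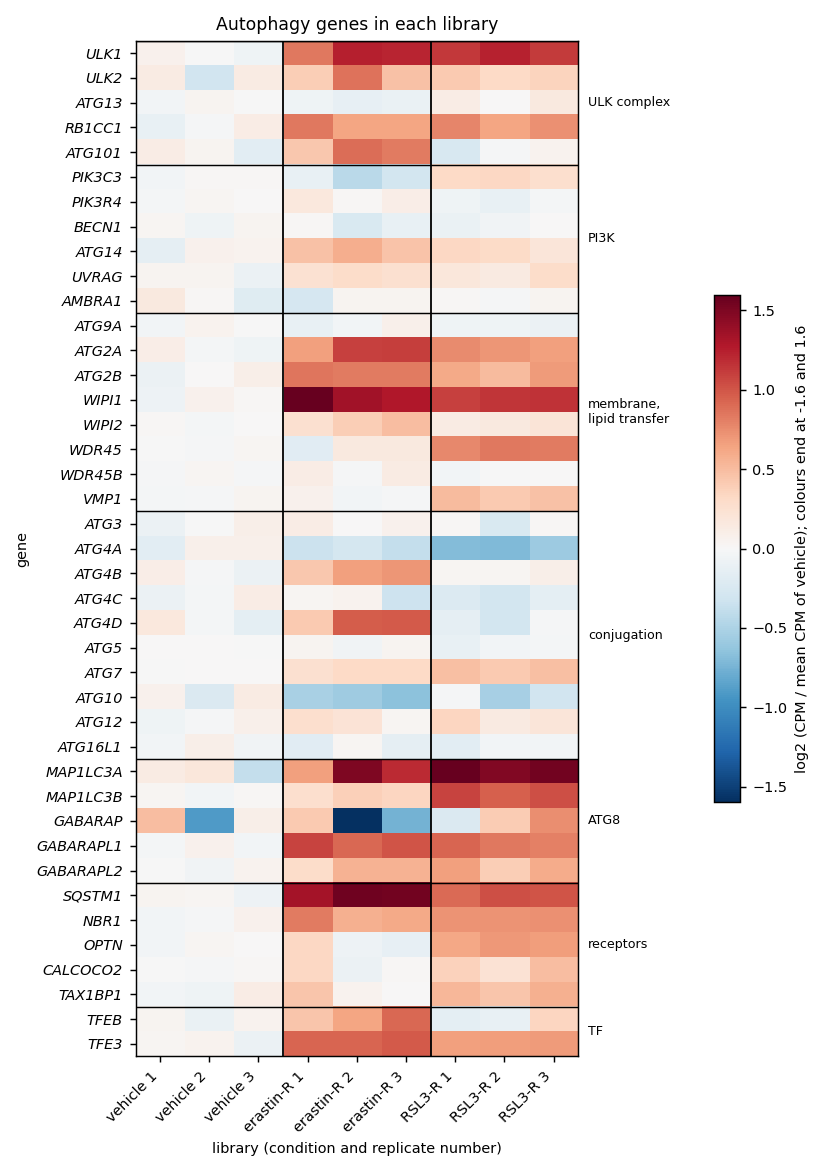
Level of each of the 41 autophagy genes (rows, grouped by role; TF, transcription factors) in each of the 9 libraries (columns) as log2 of its CPM over the mean CPM of the vehicle-treated libraries. ULK1, ATG2A, WIPI1, MAP1LC3A, GABARAPL1 and SQSTM1 are red in all 6 treated libraries, ATG4D and ATG101 mainly in erastin-R libraries and WDR45, VMP1 and MAP1LC3B mainly in RSL3-R libraries.

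**Figure D2:**
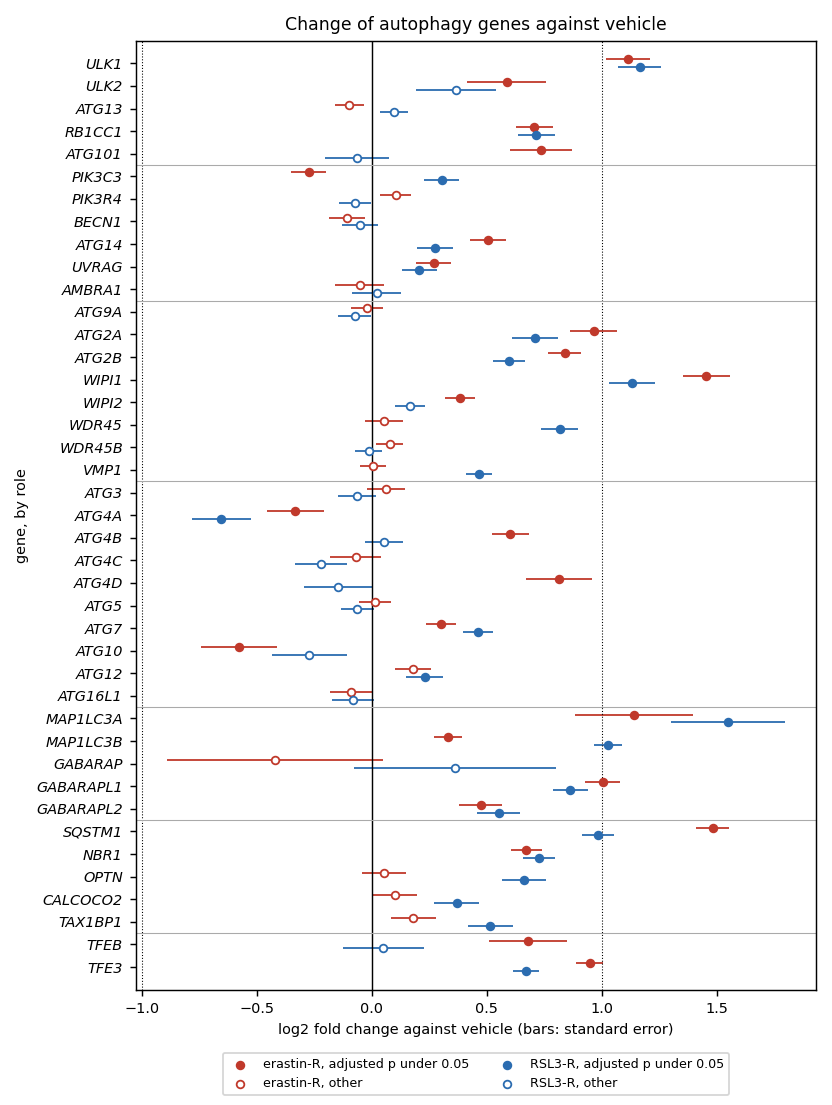
Log2 fold change against vehicle of each member in erastin-R (red) and RSL3-R (blue) cells, with standard errors as bars; filled points passed an adjusted p of 0.05 in edgeR's quasi-likelihood test, and dotted lines mark an absolute log2 fold change of 1. Most filled points lie right of 0, with ATG10, ATG4A and, in erastin-R cells, PIK3C3 to the left.

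Promoter sequence was read for the members from RefSeq (GRCh38.p14), as the 250 bases before each annotated start. A window was found for 36 of the 41 members and not for ATG4D, RB1CC1, UVRAG, WDR45B and MAP1LC3A, and 9 members had more than 1 start, which gave 47 windows. Their median GC content was 62.8% with 20 CpG dinucleotides, against 58.0% and 11 over the 35116 windows of all genes. The windows of the kinase ULK1, the lipid reader WIPI1, the receptor SQSTM1 and the ATG8 protein MAP1LC3B are shown because they include the 3 largest increases against vehicle, among members with a window, in each comparison. Capitals mark GGGCGG on either strand (the GC box, a letter sequence added after the windows were seen) and, in MAP1LC3B, TGACNNNGC.
ULK1 (chr12:131894372-131894621, plus strand): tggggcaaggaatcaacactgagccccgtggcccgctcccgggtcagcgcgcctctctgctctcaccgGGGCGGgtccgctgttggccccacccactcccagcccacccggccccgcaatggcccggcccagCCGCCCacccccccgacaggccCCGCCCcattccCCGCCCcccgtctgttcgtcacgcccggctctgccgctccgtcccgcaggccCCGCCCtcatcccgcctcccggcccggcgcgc
WIPI1 (chr17:68457497-68457746, minus strand): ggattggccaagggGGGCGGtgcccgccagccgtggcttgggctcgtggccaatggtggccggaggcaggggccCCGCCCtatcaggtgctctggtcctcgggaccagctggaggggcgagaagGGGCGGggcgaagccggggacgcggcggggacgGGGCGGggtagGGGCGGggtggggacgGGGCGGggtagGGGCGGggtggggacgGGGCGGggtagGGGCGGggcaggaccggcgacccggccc
SQSTM1 (chr5:179806143-179806392, plus strand): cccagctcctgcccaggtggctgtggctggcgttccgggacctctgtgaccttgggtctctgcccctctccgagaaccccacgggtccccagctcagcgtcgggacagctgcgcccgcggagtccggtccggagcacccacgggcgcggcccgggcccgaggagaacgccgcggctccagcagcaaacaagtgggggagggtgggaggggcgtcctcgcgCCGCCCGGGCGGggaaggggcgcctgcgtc
MAP1LC3B (chr16:87392086-87392335, plus strand): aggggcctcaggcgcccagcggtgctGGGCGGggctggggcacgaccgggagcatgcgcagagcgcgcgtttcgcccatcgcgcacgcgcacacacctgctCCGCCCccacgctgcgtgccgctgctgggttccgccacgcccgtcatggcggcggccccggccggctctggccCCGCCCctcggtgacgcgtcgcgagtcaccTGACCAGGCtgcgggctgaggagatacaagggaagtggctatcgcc
These windows held 5, 9, 2 and 3 GC boxes, at GC contents of 78.0%, 79.6%, 75.2% and 74.8%. At least 1 GC box stood in 68.1% of the members' windows (26 members) and in 42.6% of all windows. The windows of all genes were not limited to genes tested here, while every member was tested. GC content and GC boxes were therefore not compared with those of other expressed genes. None of the 4 windows held CACGTG, the core of the E-box through which TFEB and TFE3 bind.

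The other letter sequences searched, on both strands, were rare in the members' windows. CACGTG stood in 2 of 47 windows (6.34% of all windows), those of ATG14 and ATG3. TTGCAT or ATGCAA, the core of the element read by CEBP-ATF pairs such as CHOP with ATF4, stood in 1, that of ATG5 (8.86% of all windows). TGACNNNGC, the antioxidant response element read by NRF2, stood in 3, those of ATG101, MAP1LC3B and CALCOCO2 (10.9% of all windows). The stretches around the matches are shown because they are the only ones found, with the matched letters in capitals.
ATG14, CACGTG (chr14:55411831-55411878, minus strand): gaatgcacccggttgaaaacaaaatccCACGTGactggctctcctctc
ATG3, CACGTG (chr3:112561963-112562007, minus strand): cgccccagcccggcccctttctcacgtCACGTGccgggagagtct
ATG5, ATGCAA (chr6:106316476-106316516, minus strand): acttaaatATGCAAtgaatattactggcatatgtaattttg
ATG101, TGACNNNGC (chr12:52069831-52069893, plus strand): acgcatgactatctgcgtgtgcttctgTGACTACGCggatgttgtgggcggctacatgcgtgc
MAP1LC3B, TGACNNNGC (chr16:87392263-87392325, plus strand): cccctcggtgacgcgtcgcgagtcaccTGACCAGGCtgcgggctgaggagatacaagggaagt
CALCOCO2, TGACNNNGC on the other strand (chr17:48830879-48830941, plus strand): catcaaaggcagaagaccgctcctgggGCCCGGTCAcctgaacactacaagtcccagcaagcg
The 2 members with the E-box letters differed in their RNA: ATG14 was higher than vehicle in both survivors, and ATG3 passed no test. Of the 3 with the antioxidant letters, ATG101 was higher in erastin-R cells, CALCOCO2 in RSL3-R cells and MAP1LC3B in both. The stretches of ATG3, ATG5, ATG101 and MAP1LC3B lay inside the gene's GENCODE coordinates, and that of ATG14 in part. They thus precede a start other than the outermost one. The gene coordinates are chr6:106045423-106325791 for ATG5 and chr12:52069246-52077494 for ATG101. A letter match in these windows is a description, and a missing match says nothing beyond the window.

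Of the 5 members of the ULK complex, which starts autophagosome formation, 4 were higher in erastin-R cells, with 2 in RSL3-R cells, and none was lower (median log2 fold changes 0.71 and 0.36). Beside this and the other counts by role below, of all genes tested, 27.1% were called higher and 26.8% lower for erastin-R and 23.8% and 24.9% for RSL3-R cells. ULK1 (chr12:131894651-131923167, GRCh38), the kinase, was at 70.4, 67.2 and 64.0 CPM in the vehicle-treated libraries, 120.2, 159.8 and 157 CPM in the erastin-R libraries and 148, 158 and 146 CPM in the RSL3-R libraries. Every treated library lay above every vehicle-treated one, and erastin-R replicate 1 was the lowest of the treated. The log2 fold change was 1.11 ± 0.09 (SE, adjusted p = 3.72e-07) for erastin-R and 1.17 ± 0.09 (SE, adjusted p = 2.72e-07) for RSL3-R cells, and the survivors did not differ past the test (0.05 ± 0.09 SE, adjusted p = 0.674). RB1CC1, the scaffold FIP200 of the complex, rose by 0.71 ± 0.08 log2 units (SE) for erastin-R and by 0.72 ± 0.08 log2 units for RSL3-R cells.

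ATG101, which stabilizes ATG13 in the complex, was at 15.1, 14.3 and 12.4 CPM in the vehicle-treated libraries, 18.9, 26.0 and 24.8 CPM in the erastin-R libraries and 11.7, 13.8 and 14.6 CPM in the RSL3-R libraries. The 3 erastin-R libraries were above all 6 others, while vehicle and RSL3-R libraries overlapped. It rose by 0.73 ± 0.13 log2 units (SE, adjusted p = 4.01e-04) in erastin-R cells, was at -0.06 ± 0.14 log2 units (SE, adjusted p = 0.732) in RSL3-R cells, and was lower in RSL3-R than in erastin-R cells, at -0.80 ± 0.14 log2 units (SE, adjusted p = 2.62e-04). An annotated antisense gene covers 19.2% of its exons and had 0 counts. ULK2, the paralog of ULK1, was the member with the lowest level per length in vehicle-treated cells and rose in erastin-R cells (0.59 ± 0.17 log2 units SE, adjusted p = 0.0104), a call lost without vehicle replicate 2 or erastin-R replicate 2, and was at 0.36 ± 0.17 log2 units (SE, adjusted p = 0.1) in RSL3-R cells. ATG13, the adaptor of the complex, passed no test against vehicle and was higher in RSL3-R than in erastin-R cells by 0.19 ± 0.06 log2 units (SE, adjusted p = 0.0182).

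In the class III PI3K complexes, which make phosphatidylinositol 3-phosphate, 2 of 6 members were higher and 1 lower in erastin-R cells, and 3 were higher and none lower in RSL3-R cells. PIK3C3, the catalytic subunit VPS34, went in opposite directions. It was at 64.6, 67.4 and 67.2 CPM in the vehicle-treated libraries, 61.1, 49.2 and 54.1 CPM in the erastin-R libraries and 82.6, 83.3 and 80.1 CPM in the RSL3-R libraries. All erastin-R libraries lay below and all RSL3-R libraries above the vehicle range. The log2 fold change was -0.28 ± 0.08 (SE, adjusted p = 0.00774) for erastin-R and 0.30 ± 0.08 (SE, adjusted p = 0.00437) for RSL3-R cells, and the difference between the survivors was 0.58 ± 0.08 (SE, adjusted p = 3.29e-05).

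ATG14, which directs the complex to autophagy, was at 37.7, 43.7 and 43.3 CPM in the vehicle-treated libraries, 57.7, 62.0 and 57.1 CPM in the erastin-R libraries and 52.3, 51.3 and 47.3 CPM in the RSL3-R libraries. Erastin-R libraries were the highest and RSL3-R libraries intermediate, without overlap. It rose by 0.50 ± 0.08 log2 units (SE, adjusted p = 9.45e-05) for erastin-R and by 0.28 ± 0.08 log2 units (SE, adjusted p = 0.00980) for RSL3-R cells. The RSL3-R call was lost without vehicle replicate 1 (adjusted p = 0.0595). UVRAG, which replaces ATG14 in a complex for later steps, rose by 0.27 ± 0.08 log2 units (SE, adjusted p = 0.00869) and 0.21 ± 0.08 log2 units (SE, adjusted p = 0.0380), the latter lost in 8 of 15 alternative analyses, among them those without any 1 vehicle library, erastin-R replicate 2 or RSL3-R replicate 3.

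BECN1, the scaffold Beclin 1 and one of the genes most used to read autophagy, was at 51.4, 47.8 and 51.6 CPM in the vehicle-treated libraries, 51.0, 42.3 and 46.5 CPM in the erastin-R libraries and 46.8, 48.5 and 50.3 CPM in the RSL3-R libraries. The ranges of the 3 conditions overlapped, and the log2 fold changes were -0.11 ± 0.08 (SE, adjusted p = 0.255) and -0.05 ± 0.08 (SE, adjusted p = 0.623). Without erastin-R replicate 1 the erastin-R value became -0.18 (adjusted p = 0.0308). Exons of genes on the other strand cover 17.1% of its exons, and 37.6% of its longest transcript marked as principal in GENCODE. PSME3, over 4.7% of the exons with 2043 to 3493 counts, had log2 fold changes of -0.63 and -0.33. CNTD1, over 12.4% with 10 to 29 counts, had 0.61 and 0.50. The part of both genes in the BECN1 values was not tested. The log2 fold changes of AMBRA1, a regulator of BECN1, were -0.05 and 0.02, and those of PIK3R4, the regulatory subunit VPS15, were 0.10 and -0.07, all short of the test. PIK3R4 was lower in RSL3-R than in erastin-R cells, at -0.18 ± 0.07 log2 units (SE, adjusted p = 0.0452), which held in only 1 of 15 alternatives and not without erastin-R replicate 1 (-0.14, adjusted p = 0.0769).

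Among 8 genes of membrane supply and lipid transfer, 4 were higher in erastin-R cells, with 5 in RSL3-R cells, and none was lower (median log2 fold changes 0.23 and 0.53). The shares over all genes higher were 27.1% and 23.8%. WIPI1 (chr17:68420948-68457513, GRCh38), a reader of phosphatidylinositol 3-phosphate, was at 26.6, 29.6 and 28.5 CPM in the vehicle-treated libraries, 91.8, 71.4 and 68.8 CPM in the erastin-R libraries and 60.2, 62.5 and 62.8 CPM in the RSL3-R libraries. The conditions did not overlap, with vehicle lowest and erastin-R highest, and erastin-R replicate 1 was the highest library. It rose by 1.46 ± 0.10 log2 units (SE, adjusted p = 6.21e-08) in erastin-R cells, a 2.74-fold level, and by 1.13 ± 0.10 log2 units (SE, adjusted p = 7.28e-07) in RSL3-R cells, a 2.19-fold level. RSL3-R cells were lower than erastin-R cells, at -0.32 ± 0.10 log2 units (SE, adjusted p = 0.0127), and at -0.18 (adjusted p = 0.0171) without erastin-R replicate 1. ARSG, on the other strand, covers 24.3% of the exons of WIPI1 and was at 94 to 142 counts, with log2 fold changes of -0.02 and 0.37.

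ATG2A and ATG2B, the bridge-like lipid transfer proteins, rose in both survivors. ATG2A was at 96.5, 87.9 and 85.7 CPM in the vehicle-treated libraries, 142, 192 and 194 CPM in the erastin-R libraries and 152, 147 and 142 CPM in the RSL3-R libraries, with erastin-R replicate 1 close to the RSL3-R libraries and the other erastin-R libraries higher. Its log2 fold changes were 0.96 ± 0.10 (SE, adjusted p = 2.76e-06) and 0.71 ± 0.10 (SE, adjusted p = 5.46e-05). ATG2B rose by 0.84 ± 0.07 log2 units (SE) for erastin-R and 0.60 ± 0.07 log2 units for RSL3-R cells. WIPI2, the reader that recruits ATG16L1, rose in erastin-R cells (0.38 ± 0.07 log2 units SE, adjusted p = 2.45e-04) and was at 0.17 ± 0.07 log2 units (SE, adjusted p = 0.0514) in RSL3-R cells, a value past the test in 6 of 15 alternatives. One of these left out erastin-R replicate 1 (0.16, adjusted p = 0.00475). The survivors differed in ATG2A, at -0.26 ± 0.10 log2 units (SE, adjusted p = 0.0449), or -0.39 (adjusted p = 2.47e-07) without that library. This call was lost in 13 of 15 alternatives, with adjusted p-values up to 0.217.

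WDR45 (WIPI4), a reader that binds ATG2, behaved otherwise. It was at 87.1, 86.2 and 89.0 CPM in the vehicle-treated libraries, 76.8, 97.5 and 97.6 CPM in the erastin-R libraries and 149, 157 and 155 CPM in the RSL3-R libraries, and every RSL3-R library was above all others. It rose by 0.82 ± 0.08 log2 units (SE, adjusted p = 2.11e-06) in RSL3-R cells and was at 0.05 ± 0.08 log2 units (SE, adjusted p = 0.622) in erastin-R cells, or 0.16 (adjusted p = 0.0121) without erastin-R replicate 1, and the survivors differed by 0.76 ± 0.08 log2 units (SE, adjusted p = 5.19e-06). PRAF2, on the same strand, covers 13.9% of its exons and had log2 fold changes of 0.12 and 0.03. VMP1, a scramblase of the endoplasmic reticulum, was at 202, 205 and 214 CPM in the vehicle-treated libraries, 217, 200.5 and 204 CPM in the erastin-R libraries and 293, 277 and 286 CPM in the RSL3-R libraries. Here too the RSL3-R libraries were above all others, with a log2 fold change of 0.47 ± 0.06 (SE, adjusted p = 1.24e-05) against 0.01 ± 0.06 (SE, adjusted p = 0.940) for erastin-R cells and a difference of 0.46 ± 0.06 (SE, adjusted p = 1.75e-05). WDR45B (WIPI3) and the scramblase ATG9A passed no test, with log2 fold changes of 0.08 and -0.02 for erastin-R and -0.01 and -0.08 for RSL3-R cells. ATG9A shares 38.8% of its exons with an overlapping gene on the same strand that had 2 to 16 counts, so its count is uncertain.

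Among the enzymes that attach ATG8 and ATG12, calls went both ways. Of 10 members, 3 were higher and 2 lower in erastin-R cells, and 2 higher and 1 lower in RSL3-R cells, with median log2 fold changes of 0.04 and -0.07. ATG5, which is joined to ATG12, was at 36.1, 35.9 and 35.6 CPM in the vehicle-treated libraries, 37.0, 34.4 and 37.1 CPM in the erastin-R libraries and 32.9, 34.8 and 35.1 CPM in the RSL3-R libraries. All 9 libraries lay within a narrow range, and the log2 fold changes were 0.01 ± 0.07 (SE, adjusted p = 0.892) and -0.06 ± 0.07 (SE, adjusted p = 0.483). Its partner ATG16L1 (log2 fold changes -0.09 and -0.08) and the E2-like ATG3 (0.06 and -0.07) passed no test either. ATG12 was at 0.18 ± 0.08 (SE, adjusted p = 0.0730) for erastin-R and rose by 0.23 ± 0.08 (SE, adjusted p = 0.0278) for RSL3-R cells, a call lost without vehicle replicate 1, vehicle replicate 2 or RSL3-R replicate 1 (log2 fold changes 0.19, 0.22 and 0.21). Without erastin-R replicate 3 the erastin-R value passed the test (0.25, adjusted p = 0.0212).

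ATG7, the E1-like enzyme of both conjugation routes, was at 36.6, 37.2 and 36.9 CPM in the vehicle-treated libraries, 44.1, 46.1 and 46.2 CPM in the erastin-R libraries and 51.6, 49.3 and 51.5 CPM in the RSL3-R libraries. The conditions did not overlap, with RSL3-R highest. It rose by 0.30 ± 0.07 log2 units (SE, adjusted p = 0.00154) and by 0.46 ± 0.07 log2 units (SE, adjusted p = 5.40e-05), and the difference between the survivors was 0.16 ± 0.06 log2 units (SE, adjusted p = 0.0541). VGLL4, on the other strand over 18.1% of its exons (32.2% of its longest principal transcript), had log2 fold changes of -0.66 and 0.01. ATG10, the E2-like enzyme for ATG12, fell in erastin-R cells (-0.58 ± 0.17 log2 units SE, adjusted p = 0.00915) and was at -0.27 ± 0.16 log2 units (SE, adjusted p = 0.183) in RSL3-R cells. RPS23, on the other strand over 6.9% of its exons with 2946 to 6649 counts, had log2 fold changes of -0.44 and 0.17, and its part in the ATG10 values was not tested.

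The 4 ATG4 proteases, which prime ATG8 proteins and release them from membranes, separated. ATG4D was at 20.6, 17.8 and 16.5 CPM in the vehicle-treated libraries, 24.4, 35.9 and 36.3 CPM in the erastin-R libraries and 16.6, 15.0 and 18.1 CPM in the RSL3-R libraries. All erastin-R libraries were above the 6 others, and replicate 1 was the lowest of them. It rose by 0.81 ± 0.14 log2 units (SE, adjusted p = 3.05e-04) in erastin-R cells, was at -0.15 ± 0.15 log2 units (SE, adjusted p = 0.448) in RSL3-R cells, and was lower in RSL3-R than in erastin-R cells, at -0.96 ± 0.15 log2 units (SE, adjusted p = 1.06e-04). KRI1, on the other strand over 15.0% of its exons, was lower than vehicle in both survivors (log2 fold changes -0.50 and -0.58). Per length, the vehicle level was 8.03 ± 0.551 FPKM (SD, n = 3) for ATG4B, 7.96 ± 0.907 FPKM for ATG4D, 6.81 ± 0.538 FPKM for ATG4C and 3.16 ± 0.313 FPKM for ATG4A. ATG4B was at 57.9, 53.2 and 50.4 CPM in the vehicle-treated libraries, 72.5, 84.7 and 88.1 CPM in the erastin-R libraries and 55.2, 55.0 and 57.5 CPM in the RSL3-R libraries.

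Erastin-R libraries were again above all others for ATG4B, with a log2 fold change of 0.60 ± 0.08 (SE, adjusted p = 2.99e-05), against 0.05 ± 0.08 (SE, adjusted p = 0.616) in RSL3-R cells and a difference of -0.55 ± 0.08 (SE, adjusted p = 8.78e-05). THAP4, on the other strand over 3.6% of its exons, had log2 fold changes of 0.65 and -0.13, and its part was not tested. ATG4A was at 8.29, 9.88 and 9.87 CPM in the vehicle-treated libraries, 7.38, 7.70 and 7.17 CPM in the erastin-R libraries and 5.80, 5.72 and 6.25 CPM in the RSL3-R libraries. Vehicle libraries were highest and RSL3-R libraries lowest, without overlap. It fell in RSL3-R cells (-0.66 ± 0.13 log2 units SE, adjusted p = 7.92e-04), and the decrease in erastin-R cells (-0.33 ± 0.13 log2 units SE, adjusted p = 0.0375) was lost in 10 of 15 alternatives, among them the one without erastin-R replicate 1 (-0.33, adjusted p = 0.0526). ATG4C passed no test (log2 fold changes -0.07 and -0.22).

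Of the 5 ATG8 genes, whose products coat the autophagosome membrane, 4 were higher in each survivor and none was lower, with median log2 fold changes of 0.47 for erastin-R and 0.86 for RSL3-R cells. MAP1LC3B (chr16:87383995-87404779, GRCh38), the source of the LC3 used to follow autophagosomes, was at 98.2, 93.9 and 97.3 CPM in the vehicle-treated libraries, 116, 126 and 122 CPM in the erastin-R libraries and 205, 187 and 198 CPM in the RSL3-R libraries. The conditions did not overlap, and RSL3-R libraries were far above the others. It rose by 0.33 ± 0.06 log2 units (SE, adjusted p = 3.44e-04) in erastin-R cells, a 1.26-fold level, and by 1.03 ± 0.06 log2 units (SE, adjusted p = 1.03e-08) in RSL3-R cells, a 2.04-fold level. The survivors differed by 0.70 ± 0.06 log2 units (SE, adjusted p = 6.74e-07). Its near copy MAP1LC3B2 shares 4.8% of its 50-base words and its count is uncertain to that extent. MAP1LC3B2 had log2 fold changes of 0.47 and 0.97.

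GABARAPL1, a GABARAP paralog, was at 27.5, 29.5 and 27.1 CPM in the vehicle-treated libraries, 59.5, 53.1 and 56.1 CPM in the erastin-R libraries and 53.6, 50.3 and 49.0 CPM in the RSL3-R libraries. All treated libraries were above the vehicle range and the survivors overlapped. It rose by 1.003 ± 0.08 log2 units (SE, adjusted p = 1.21e-07) and 0.86 ± 0.08 log2 units (SE, adjusted p = 5.80e-07). MAP1LC3A, the LC3A paralog, had low counts, at 25, 25 and 17 counts for vehicle-treated, 36, 60 and 51 counts for erastin-R and 66, 61 and 68 counts for RSL3-R libraries. The treated libraries were all above the vehicle libraries, and the log2 fold changes were 1.14 ± 0.26 (SE, adjusted p = 0.00181) and 1.55 ± 0.25 (SE, adjusted p = 1.52e-04). GABARAPL2 rose by 0.47 ± 0.09 log2 units (SE) and 0.55 ± 0.09 log2 units.

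GABARAP itself was counted at 41, 15 and 30 counts for vehicle-treated, 39, 8 and 17 for erastin-R and 23, 37 and 50 for RSL3-R libraries, and the conditions overlapped. Its exons share 30.5% of their length with a readthrough gene on the same strand that had 0 counts and 25.2% with a gene on the other strand that had 4 to 17 counts. Reads in shared exons may be counted for neither gene, so its level is uncertain. The log2 fold changes were -0.42 ± 0.47 (SE, adjusted p = 0.469) and 0.36 ± 0.44 (SE, adjusted p = 0.523). Without erastin-R replicate 1 the erastin-R value became -1.16 (adjusted p = 0.0224).

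**Figure D3:**
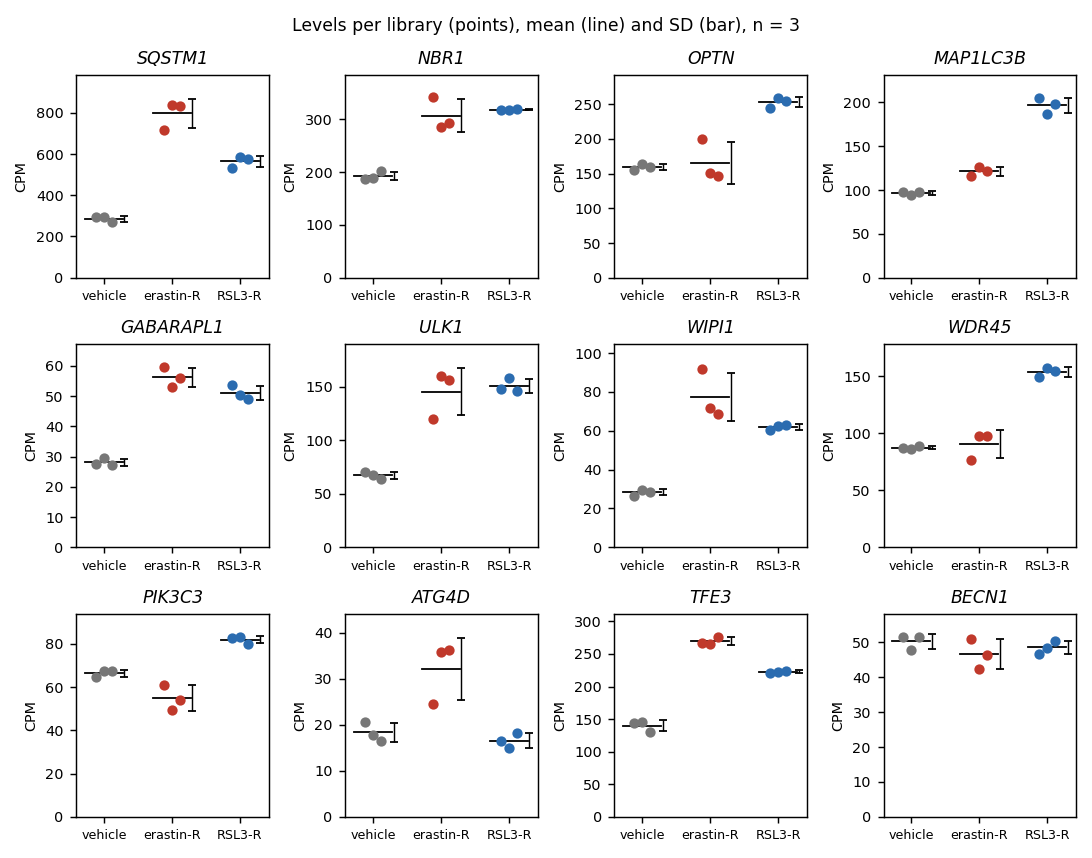
CPM of 12 members in each library (points), with the mean (line) and SD (bar, n = 3) of each condition; every axis starts at 0. SQSTM1, WIPI1 and TFE3 are highest in erastin-R cells, MAP1LC3B, WDR45, OPTN and PIK3C3 in RSL3-R cells, ATG4D stands out in erastin-R cells alone, and BECN1 overlaps between conditions.

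All 5 cargo receptors were higher in RSL3-R cells (median log2 fold change 0.66), against 2 in erastin-R cells (median 0.18), and none was lower in either. SQSTM1 (chr5:179806398-179838078, GRCh38), the receptor p62, was at 293, 293 and 270.5 CPM in the vehicle-treated libraries, 718, 840.0 and 834 CPM in the erastin-R libraries and 534, 584 and 574 CPM in the RSL3-R libraries. The conditions did not overlap, with vehicle lowest and erastin-R highest. It rose by 1.48 ± 0.07 log2 units (SE, adjusted p = 2.20e-09) in erastin-R cells, a 2.79-fold level, and by 0.98 ± 0.07 log2 units (SE, adjusted p = 7.29e-08) in RSL3-R cells, a 1.98-fold level, and RSL3-R cells were below erastin-R cells, at -0.50 ± 0.07 log2 units (SE, adjusted p = 4.81e-05). Genes on the other strand cover 53.0% of the longest SQSTM1 transcript marked as principal in GENCODE. MRNIP lies on the other strand over 20.7% of the exons of SQSTM1. It moved the same way, with log2 fold changes of 1.09 and 0.61, at 422 to 1061 counts against 4385 to 13723 counts of SQSTM1, and its part in the SQSTM1 values was not tested. Whether reads were assigned by strand was not given, and the methods mention no library step that keeps strand. Genes on the other strand also cover up to 6.4% of the exons of ATG13, UVRAG, ATG2B, VMP1, ATG12, MAP1LC3B, NBR1, OPTN and TAX1BP1. Their part was not tested.

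NBR1, a receptor that works beside SQSTM1, rose by 0.67 ± 0.07 log2 units (SE, adjusted p = 2.48e-06) for erastin-R and 0.73 ± 0.07 log2 units (SE, adjusted p = 1.37e-06) for RSL3-R cells. The survivors differed by 0.05 ± 0.07 log2 units (SE, adjusted p = 0.543), or 0.14 (adjusted p = 0.0111) without erastin-R replicate 1. The remaining receptors passed the test in RSL3-R cells and not in erastin-R cells, and each was higher in RSL3-R than in erastin-R cells. OPTN, a mitophagy receptor phosphorylated by TBK1, was at 155, 164 and 160.2 CPM in the vehicle-treated libraries, 200.1, 150.4 and 146 CPM in the erastin-R libraries and 245, 259 and 254 CPM in the RSL3-R libraries. RSL3-R libraries were above all others, and erastin-R replicate 1 lay above the vehicle range while the other erastin-R libraries lay below it. The log2 fold changes were 0.05 ± 0.10 (SE, adjusted p = 0.675) and 0.66 ± 0.10 (SE, adjusted p = 6.18e-05), and the difference between the survivors was 0.61 ± 0.10 (SE, adjusted p = 1.35e-04), or 0.77 (adjusted p = 8.26e-14) without erastin-R replicate 1.

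TAX1BP1, which clears protein aggregates, was at 181, 138 and 133 CPM in erastin-R libraries against 128, 126 and 144 CPM in vehicle-treated and 192, 181 and 197 CPM in RSL3-R libraries. Replicate 1 was again the high erastin-R library. Without erastin-R replicate 3 the log2 fold change for erastin-R cells passed the test (0.26, adjusted p = 0.0433). It rose by 0.52 ± 0.10 (SE, adjusted p = 6.80e-04) in RSL3-R cells, and the difference between the survivors was 0.33 ± 0.10 (SE, adjusted p = 0.0121), or 0.49 (adjusted p = 1.76e-08) without erastin-R replicate 1, a call lost without erastin-R replicate 2 or 3 (log2 differences 0.27 and 0.25). CALCOCO2 (NDP52), a receptor for bacteria and mitochondria, rose by 0.37 ± 0.10 log2 units (SE, adjusted p = 0.00639) in RSL3-R cells and was at 0.10 ± 0.10 log2 units (SE, adjusted p = 0.411) in erastin-R cells. Its difference between the survivors was 0.27 ± 0.10 log2 units (SE, adjusted p = 0.0338), or 0.40 (adjusted p = 4.06e-06) without erastin-R replicate 1.

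Of the transcription factors, TFE3 rose in both survivors and TFEB in erastin-R cells. TFE3 was at 143, 145 and 131 CPM in the vehicle-treated libraries, 266, 266 and 276 CPM in the erastin-R libraries and 220.1, 222 and 225 CPM in the RSL3-R libraries. The conditions did not overlap, with erastin-R highest, and the log2 fold changes were 0.95 ± 0.06 (SE, adjusted p = 1.99e-08) and 0.67 ± 0.06 (SE, adjusted p = 5.00e-07), with a difference of -0.28 ± 0.06 (SE, adjusted p = 0.00117). TFEB, its paralog, was at 5.90, 5.31 and 5.98 CPM in the vehicle-treated libraries, 7.80, 8.91 and 10.8 CPM in the erastin-R libraries and 5.16, 5.28 and 7.31 CPM in the RSL3-R libraries. Erastin-R libraries were above the others, and vehicle and RSL3-R libraries overlapped. It rose by 0.68 ± 0.17 log2 units (SE, adjusted p = 0.00380) in erastin-R cells, was at 0.05 ± 0.18 log2 units (SE, adjusted p = 0.840) in RSL3-R cells, and was lower in RSL3-R than in erastin-R cells, at -0.63 ± 0.17 log2 units (SE, adjusted p = 0.00693).

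**Figure D4:**
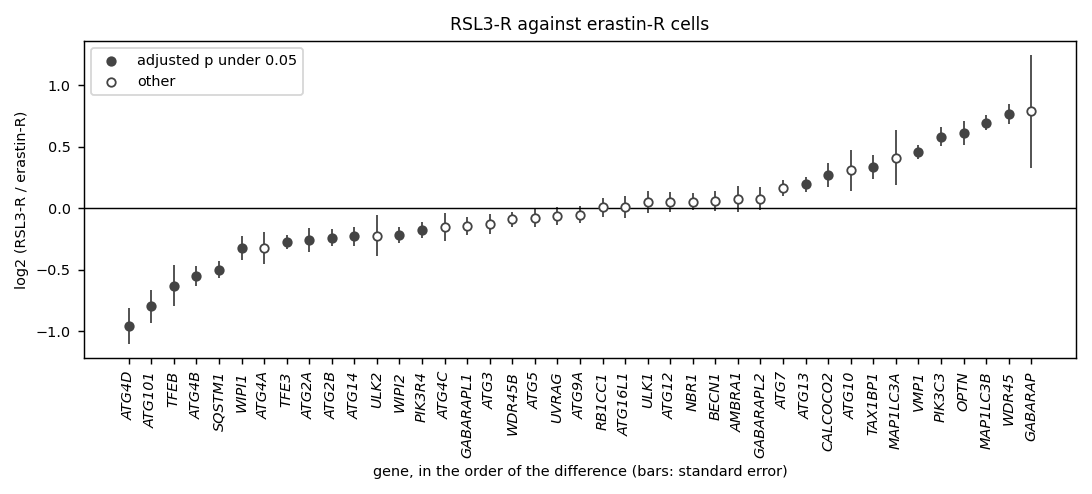
Log2 difference of RSL3-R from erastin-R cells for each of the 41 members, in order, with standard errors as bars; filled points passed an adjusted p of 0.05 in edgeR's quasi-likelihood test. ATG4D and ATG101 are lowest, while WDR45, MAP1LC3B, OPTN and PIK3C3 are the highest filled points, and GABARAP has the longest bar.

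Of the 41 members, 20 differed between the survivors, against 49.2% of all genes tested. Higher in RSL3-R than in erastin-R cells were PIK3C3, WDR45, VMP1, MAP1LC3B, OPTN, CALCOCO2, TAX1BP1 and ATG13. Lower were ATG101, ATG4B, ATG4D, TFEB, TFE3, SQSTM1, WIPI1, WIPI2, ATG2A, ATG2B, ATG14 and PIK3R4. The libraries of the survivors did not overlap for these genes, apart from ATG2A and CALCOCO2. Counted over all 41 members, RSL3-R libraries lay above all erastin-R libraries for 8 (25.6% of all genes tested) and below them for 12 (29.5%), called or not. The call held under all 15 alternatives for 11 of the 20, and PIK3R4 and ATG2A lost it most often, in 14 and 13 of them. Both lost it without any 1 vehicle or RSL3-R library or erastin-R replicate 3, PIK3R4 also without erastin-R replicate 1 and ATG2A without erastin-R replicate 2. Without erastin-R replicate 2 the calls of ATG13, ATG14, CALCOCO2 and TAX1BP1 were lost as well, and without erastin-R replicate 3 those of ATG13, WIPI2, CALCOCO2 and TAX1BP1. Leaving out RSL3-R replicate 1 ended the calls of ATG14, ATG2B, WIPI1 and WIPI2, RSL3-R replicate 2 those of ATG14 and ATG2B, and RSL3-R replicate 3 those of ATG14, WIPI1, WIPI2 and CALCOCO2. In these cases the log2 differences were -0.14 to -0.30 for the members lower in RSL3-R cells and 0.18 to 0.27 for those higher.

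Members described elsewhere as targets of ATF4 or CHOP, the factors of the integrated stress response, were 12 in number. Of these 5 were higher and 1 lower in erastin-R cells (median log2 fold change 0.12), and 6 were higher and none lower in RSL3-R cells (median 0.30). Over all genes tested, 27.1% were higher and 26.8% lower for erastin-R, and 23.8% and 24.9% for RSL3-R cells. SQSTM1, MAP1LC3B, NBR1, GABARAPL2 and ATG7 were the 5 higher ones in erastin-R cells, and ATG12 joined them in RSL3-R cells, while BECN1, ATG3, ATG5, ATG16L1 and GABARAP passed neither test. The 4 members taken here as described TFEB targets (MAP1LC3B, SQSTM1, UVRAG and WIPI1) were all higher in each survivor, with medians of 0.89 and 1.005. These 4 were chosen with earlier results of these data known and are not a full list of its targets. Their shared direction is therefore a description, and activity of TFEB was not tested.

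**Figure D5:**
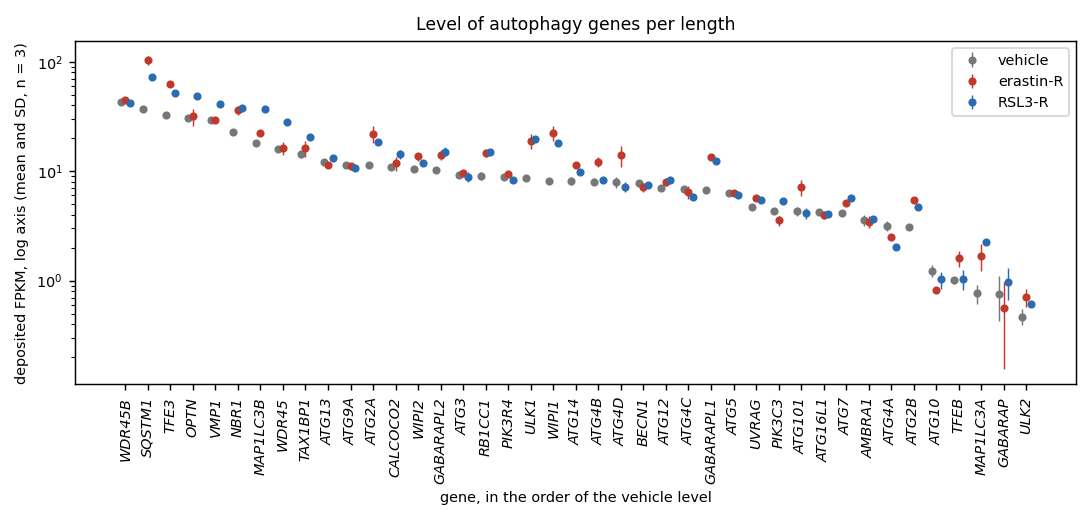
Deposited FPKM of the 41 members (log axis, mean and SD, n = 3) in vehicle-treated (grey), erastin-R (red) and RSL3-R (blue) cells, in the order of the vehicle level. WDR45B leads in vehicle-treated cells at 42.4 FPKM and SQSTM1 in both survivors. ATG10, TFEB, MAP1LC3A, GABARAP and ULK2 lie near or below 2 FPKM in every condition.

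Levels between genes were compared per length, on the deposited FPKM scale. The median level of the members was 8.14 FPKM for vehicle-treated, 11.4 FPKM for erastin-R and 8.94 FPKM for RSL3-R cells, against 4.09, 4.15 and 4.07 FPKM over all genes tested. WDR45B led in vehicle-treated cells at 42.4 ± 0.746 FPKM (SD, n = 3), ahead of SQSTM1 at 36.9 ± 1.60 FPKM. SQSTM1 was first in both survivors, at 103 ± 9.25 FPKM for erastin-R and 73.2 ± 3.42 FPKM for RSL3-R cells, followed by TFE3 at 62.0 ± 1.65 and 51.5 ± 0.603 FPKM.

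Within the receptors, SQSTM1 made up 31.9% of the summed FPKM for vehicle-treated, 51.9% for erastin-R and 37.6% for RSL3-R cells. The summed FPKM of the ATG8 genes was 36.5, 52.5 and 67.4 in the same order. MAP1LC3B was 49.2%, 42.9% and 54.5% of it, and GABARAPL1 18.6%, 25.9% and 18.4%. MAP1LC3B gave the largest part of this sum in all 3 conditions, with the level of GABARAP uncertain.

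Beyond the members, 47 further autophagy genes were looked at, of which 44 were tested and RETREG1, ATG9B and MAP1LC3C had too few counts. Of 16 other selective receptors tested, 6 were higher and 4 lower in erastin-R cells, with 5 higher and 5 lower in RSL3-R cells (median log2 fold changes -0.03 and -0.01). The shares over all genes tested were 27.1% higher and 26.8% lower for erastin-R, and 23.8% and 24.9% for RSL3-R cells. Of 15 genes of fusion with the lysosome, 6 were higher and 4 lower, and then 7 and 5 (medians 0.11 and 0.15). Of 13 other core and regulatory genes tested, 6 were higher and 1 lower in erastin-R cells, with 10 higher and 1 lower in RSL3-R cells (medians 0.33 and 0.40).

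NCOA4, the ferritin receptor, was at 138, 139.6 and 148 CPM in the vehicle-treated libraries, 128, 110.1 and 104 CPM in the erastin-R libraries and 143, 129 and 133 CPM in the RSL3-R libraries. It fell in erastin-R cells (-0.31 ± 0.08 log2 units SE, adjusted p = 0.00313) and was at -0.07 ± 0.08 log2 units (SE, adjusted p = 0.449) in RSL3-R cells. Other genes of these lists met the stricter rule against vehicle. EPG5, a tether for fusion, rose by 1.47 ± 0.06 log2 units (SE) and 1.10 ± 0.06 log2 units, and the fusion SNARE VAMP8 fell, at -1.12 ± 0.13 log2 units and -0.65 ± 0.13 log2 units. Without erastin-R replicate 2 the log2 fold change of VAMP8 in erastin-R cells was -0.997, short of the fold. The mitophagy receptor BNIP3 fell, at -0.71 ± 0.05 log2 units and -1.004 ± 0.05 log2 units. The latter was short of the fold without RSL3-R replicate 1 (-0.95) or RSL3-R replicate 3 (-0.97), and in 3 of the other alternatives. STBD1, the glycogen receptor, had 10 to 47 counts, with 58.1% of its exons shared with a readthrough gene. It fell in RSL3-R cells, at -1.27 ± 0.32 log2 units. In erastin-R cells it was at 0.435 ± 0.27 log2 units, short of the test. The difference of RSL3-R from erastin-R cells was -1.70 ± 0.31 log2 units, past the test.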

How the data were processed

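Poly(A) RNA from MDA-MB-231 cells gave 9 libraries. Per the submitters' processing notes and the methods, reads were processed with HISAT2 2.0.5 and featureCounts 1.5.0-p3, using uniquely mapped exonic reads. The methods name the NEBNext Ultra RNA kit for the libraries and mention no step that keeps strand. Whether counting used strand was not given in the sources used here. The authors deposited raw counts per gene and FPKM values made from them, called RPKM in the methods. All 58735 gene identifiers and coordinates match GENCODE release 29 (GRCh38).

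Counts were analysed with edgeR 4.0.16 in R 4.3.3 (TMM, filterByExpr, quasi-likelihood test, 1 model of 9 libraries without covariates), and the Benjamini-Hochberg adjustment ran over 16188 genes. Each standard error is the log2 fold change over the root of the F statistic. The coefficient of variation between replicates was 8.56%, and 3 counts, taken as the detection limit, cover counting error only. The FPKM values served to compare levels between genes. Alternatives were DESeq2 1.42.0, RLE scaling, quantile normalization with limma 3.58.1, no filter, a model of only 2 conditions, the replicate block, each library left out, and unadjusted p-values. Tests were tried on simulated counts in which 200 of 16188 genes were changed in the erastin-R group. There edgeR recovered 140 of them with 11 false calls. A far larger share of genes was called in the real data (54.0% in that comparison), so error control at that share was not tested. Python 3.11.15 with matplotlib 3.10.9 drew the figures.

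The members and lists were chosen with earlier results of these data known. Every member is accounted for. Values per library are given for members past the fold of the stricter rule, the largest change of each role in each comparison with vehicle, and SQSTM1, MAP1LC3B, ULK1, BECN1, ATG5, ATG7 and TFEB. ATG101, ATG2A, WDR45, VMP1, ATG4B, GABARAP, OPTN and TAX1BP1 were added after their values were seen. Of the other lists, genes past that fold against vehicle and NCOA4 are named, except 1 that is not reported here.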

Additional observations from a re-analysis of the deposited data

Results flagged for a closer look

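PIK3C3 was past the test downward in erastin-R cells (-0.28 ± 0.08, adjusted p = 0.00774) and upward in RSL3-R cells (0.30 ± 0.08, adjusted p = 0.00437), with the same vehicle libraries in both comparisons. The difference between the survivors was tested directly with edgeR's quasi-likelihood test, at a log2 difference of 0.58 ± 0.08 (SE, adjusted p = 3.29e-05). It was the only member called in opposite directions against vehicle. All 3 erastin-R libraries lay below the vehicle range, and all 3 RSL3-R libraries lay above it.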

How the results depend on the processing

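Against vehicle, 22 of 24 erastin-R member calls and 20 of 23 RSL3-R member calls held under all 15 alternatives that gave an adjusted p per gene, and 11 of 20 in the direct comparison. Sign changes of values that passed no test were not counted. The number of members higher in erastin-R cells was 20 to 23 when libraries were left out in turn, and past the fold 3 to 5, with 3 without vehicle replicate 3. The number lower was 2 to 4, and past the fold 0 to 1, the latter being GABARAP without erastin-R replicate 1. In RSL3-R cells 19 to 23 were higher, 4 to 5 of them past the fold, and 1 was lower each time. A model of only the 2 conditions found 2 lower, with ATG4C added. In the direct comparison 5 to 10 were higher, with 5 without erastin-R replicate 2 or 3, and 6 to 11 lower, with 6 without RSL3-R replicate 1 and 7 without RSL3-R replicate 3. Past the fold there were 0 to 1 in each direction, 1 each without erastin-R replicate 1. After quantile normalization with limma 7 were lower, and the median difference turned from -0.05 to 0.0552. The causes of these changes were not tested.

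Replicate numbers did not pair the libraries: after subtraction of condition means, the mean correlation was -0.00495 over 9 pairs with the same number and 0.00256 over 18 pairs with different numbers. With the replicate number as a block, 21 members were higher and 2 lower for erastin-R, 21 and 1 for RSL3-R, and 8 and 10 in the direct comparison. Low counts limit MAP1LC3A and GABARAP most, and for GABARAP reads in shared exons may also have gone uncounted.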
